A study of Mus musculus with 31 samples.

Results

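Livers of aged Ames dwarf mice were set against livers of wild-type mice of the same age, 22 months, across all genes that the arrays could read. The comparison took every array that the sample titles place in these groups, 5 dwarf and 6 wild type, which is 11 of the 31 arrays of the series. Each array carried liver RNA of 1 animal, going by the animal names in the titles. Dwarf and wild type are the genotypes that the titles name, and the wild-type mice, whose titles also carry the name Ames, served as controls. Whether these were littermates is not given in the labels, and no treatment is named. Sex, batch and time of day are not given either. One free-text field speaks of a fly tissue, against mouse and liver in every other field. Younger groups of 4 and 10 months, 5 arrays per genotype, entered the fit and one comparison near the end. Replicates are numbered within a group, and the number pairs no animals.

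The pituitary of Ames dwarf mice makes little or no prolactin, thyroid-stimulating hormone or growth hormone. In the liver, growth hormone acts through its receptor and the kinase Jak2 on the transcription factor Stat5b, which drives Igf1 and sets the sex-biased pattern of liver genes in mice, since males secrete the hormone in pulses and females more evenly. Thyroid hormone reaches liver genes through the receptors Thra and Thrb, and Dio1 converts the prohormone to the active form.

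The tissue label held on these arrays. Summed over 10 hepatocyte markers, signal ran from 275100 to 324800 on dwarf arrays and from 310400 to 384900 on wild-type arrays, and none of the markers was dim, with a mean signal below 50. Of the 9 hepatocyte markers tested, 0 passed the threshold in either direction, with a median difference of -0.17 log2. Bulk liver cannot tell fewer cells of a type from less RNA per cell. Signal is a brightness on a linear scale, read here after each array was scaled to the same trimmed mean, and a difference is given as dwarf minus wild type in log2 of signal plus 16, which understates the difference of dim genes. Median signal lay between 169.8 and 227.2 on these arrays.

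One wild-type array stood apart. It is the array titled df41, numbered wild type replicate 2. The letters df stand also in the animal names of all 5 dwarf arrays and in no other wild-type name at this age. Xist, the RNA that coats the inactive X chromosome of female cells, read 8167 on df41 and 8414 on dwarf replicate 1, but at most 79.76 on the other 9 arrays. Eif2s3y, a gene of the Y chromosome, read 5.55 on df41 and 21.6 on dwarf replicate 1, against 588.1 to 1264 on the others. Across probe sets, df41 correlated at 0.9242 to 0.9372 with the dwarf arrays and at 0.9081 to 0.9175 with the other wild-type arrays, which correlated with each other at 0.911 to 0.9356. Its Igf1 signal, 18770, was nevertheless the highest of all 11 arrays. The counts, the pathway lists and the 30 genes with the largest differences are therefore given with and without it. What sets it apart was not tested, and the labels do not name a sex.

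At 22 months 635 of 15421 genes passed an adjusted p of 0.05 by limma, which is 4.12% of the genes tested. Of these, 379 were higher in dwarf livers (2.46%) and 256 lower (1.66%), and 117 and 118 differed by at least 2-fold. Without df41, 1030 of 15393 genes passed (6.69%), with 645 higher (4.19%) and 385 lower (2.50%). The calls with and without it shared 610 genes, while 25 genes were called only with it and 420 only without it. Leaving out both arrays with high Xist at this age, and the 2 at 10 months, gave 467 higher (3.06%) and 296 lower (1.94%) of 15280 genes, or 763 in all (4.99%). With all arrays, the dwarf and wild-type ranges did not overlap for 433 genes (2.81%), and with df41 set aside for 1035 (6.71%). Of the 635 genes, 289 stayed past the threshold whichever of the 11 arrays was left out, 165 of them higher and 124 lower. The median difference over all genes was 0.01 log2.

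Among the genes of the growth hormone and IGF-1 axis, Igf1 and Igfals fell, Igfbp1 rose, and no gene of the signalling chain from the receptor to Stat5b passed. Igf1, the growth factor that the liver releases into the blood, read 3049, 4293, 10820, 3250 and 7468 on dwarf replicates 1 to 5. On the wild-type arrays it ran from 13140 through a median of 13630 to 18770. All dwarf arrays lay below all wild-type arrays, but replicates 3 and 5 came much closer to them than the other 3. Igf1 fell by 1.54 log2 (SE 0.26, adjusted p = 0.000259 by limma), and by 1.48 without df41 (adjusted p = 0.000531).

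Igfals, the protein that holds IGF-1 in a long-lived complex in the circulation, read 644.5, 1049, 2252, 669.8 and 1893 in dwarf livers and 2319 to 3285, with a median of 2753, in wild type. Here too the groups did not overlap, and dwarf replicates 3 and 5 were again the highest, with replicate 3 just under the lowest wild-type array. The difference was -1.26 log2 (SE 0.23, adjusted p = 0.000806), and -1.21 without df41. Igfbp1, a binding protein that restrains free IGF-1 and is induced in fasting, read 28050, 6600, 2562, 10690 and 4038 in dwarf livers. In wild type df41 read 8358, and the others from 304.0 to 1611. Dwarf replicates 3 and 5, highest for Igf1, were lowest for Igfbp1, and all 5 lay above the wild-type arrays other than df41. Igfbp1 rose by 2.44 log2 (SE 0.69, adjusted p = 0.0358), and by 2.97 without df41 (adjusted p = 0.00368). With all arrays its call held in only 3 of the 11 fits that left out 1 array.

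Those were the calls of this list with all arrays, 1 higher and 2 lower of 19 genes, and the counts were the same without df41. Of all genes 2.46% were higher and 1.66% lower, and without df41 4.19% and 2.50%. The median of the list was -0.09, and -0.10 without df41. The receptor gene Ghr (-0.07, adjusted p = 0.812), the kinase Jak2 (-0.60, adjusted p = 0.163), the transcription factors Stat5a (-0.56) and Stat5b (-0.03) and the feedback inhibitors Cish (-0.28), Socs2 (-0.18) and Socs3 (-0.30) did not pass. Igfbp2, another binding protein, read 14550 to 16870 on all dwarf arrays and 6221 to 12590 in wild type, with no overlap, yet it did not pass (0.89, adjusted p = 0.101).

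Promoter sequences of genes of this axis were read from RefSeq, build GRCm38.p6, because Stat5 proteins bind the palindrome TTCNNNGAA, which reads the same on both strands. Shown are the 250 bases before the start of Igfals and Igf1, and the capitals mark the palindrome. Hamp2, a hepcidin gene that rose, is shown too. It lies outside this axis, and of 18 leading genes with a window it was the only 1 to hold the palindrome. Igfals is at chr17:24877594-24877843, plus strand, Igf1 at chr10:87860861-87861110, plus strand, and Hamp2 at chr7:30924182-30924431, minus strand.
Igfals: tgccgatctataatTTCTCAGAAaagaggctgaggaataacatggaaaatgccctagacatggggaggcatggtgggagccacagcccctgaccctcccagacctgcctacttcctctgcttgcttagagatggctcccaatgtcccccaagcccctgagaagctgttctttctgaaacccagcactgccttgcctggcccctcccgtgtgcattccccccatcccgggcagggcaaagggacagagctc
Igf1: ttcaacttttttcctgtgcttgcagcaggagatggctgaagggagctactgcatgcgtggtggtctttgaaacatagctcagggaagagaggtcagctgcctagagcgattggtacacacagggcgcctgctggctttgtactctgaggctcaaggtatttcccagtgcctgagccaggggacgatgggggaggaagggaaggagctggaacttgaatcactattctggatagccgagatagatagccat
Hamp2: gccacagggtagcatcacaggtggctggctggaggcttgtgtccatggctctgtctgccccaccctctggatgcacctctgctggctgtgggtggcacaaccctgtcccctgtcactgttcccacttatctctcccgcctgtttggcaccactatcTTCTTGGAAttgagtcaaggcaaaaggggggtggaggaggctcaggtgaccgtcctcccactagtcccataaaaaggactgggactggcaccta

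The palindrome begins 236 bases before the start in Igfals and 94 in Hamp2, and these letters do not occur in the Igf1 window. The window of Mup10, a gene that fell, at chr4:60582156-60582405, minus strand, was read too and does not hold it. Its bases are not shown. A second start of Igfals has it 58 bases upstream, in ctgccaggtgTTCCTAGAAgaggccctgg at chr17:24878163-24878191, plus strand, and the window of the remaining start, at chr17:24878497-24878746, does not hold it. Of the 30 genes with the largest rises and falls at 22 months, 18 had a promoter window in the table, and 1 of them, Hamp2, held the palindrome (5.56%). Of the genes tested that had a window of the same 300 bases, 8.53% held it, as did 8.3% of all 32851 windows, so the leading genes did not stand out from the background. A match is a description of letters and not evidence of binding.

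Genes that male mouse livers express more strongly fell together in dwarf livers. On the list of male-biased genes 19 of 22 were lower in dwarf livers and 0 higher, where 1.66% of all genes tested were lower. The median was -2.18 log2, and -2.35 without df41, when 20 were lower, against 2.50% of all genes. Every one of the 22 differences was below 0 with all arrays. Without the arrays with high Xist, dwarf replicate 1 among them, 20 were lower, against 1.94% of all genes, and the median was -2.45. The members of this and the next list are close to what growth hormone governs in mouse liver, and both lists were compiled with earlier results of these data known.

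Hsd3b5, a male-specific steroid-metabolising enzyme, read 8.58, 12.9, 18.2, 22.6 and 13.4 in dwarf livers and 6543 to 15530 on the wild-type arrays other than df41, which read 11.3. Signal of the dwarf arrays and df41 was thus at or below the 10th percentile of an array, 19.2 to 27.5, except on dwarf replicate 4, which lay within it. The difference was -6.80 log2 (SE 0.97, adjusted p = 1.86e-05 by limma), and -8.19 without df41. Elovl3, an elongase of very long fatty acids, read 145.8 to 610.1 in dwarf livers, 447.0 on df41 and 9941 to 15250 on the others. It fell by 4.58 log2, and by 5.36 without df41. Cyp7b1, a hydroxylase of oxysterols, read between 711.1 and 876.7 on the dwarf arrays, 2136 on df41 and 17130 to 22970 on the others, a fall of 4.05 log2 (adjusted p = 9.45e-08), and of 4.58 without df41.

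Slco1a1, a transporter that takes up organic anions, fell by 5.87 log2 (SE 0.45), or -6.43 without df41, with 59.24 to 77.47 in dwarf livers, 670.8 on df41 and 6156 to 10020 on the others. df41 lay about midway on the log scale for this gene. The serpins Serpina4-ps1 (-4.51, and -5.13 without df41) and Serpina12, an adipokine also called vaspin (-3.94 and -4.40), fell, as did Cyp4a12a, a male-specific hydroxylase of arachidonic acid (-2.85, adjusted p = 0.0415). Cyp4a12a read 228.4 on df41, below every dwarf array (355.9 to 3933), and 12240 to 16300 on the other wild-type arrays. Without df41 it stood at -3.83 (adjusted p = 0.000112), but with all arrays its call held in only 2 of 11 fits that left out 1 array. Cyp2d9, a testosterone hydroxylase, passed only without df41 (-1.63, adjusted p = 6.02e-10), with 605.3 on df41, 4713 to 6673 in dwarf livers and 13430 to 19940 elsewhere. With it the difference was -0.85 (adjusted p = 0.374).

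Major urinary proteins, which carry pheromones into male urine, separated the genotypes with df41 on the wild-type side. Mup10 read 382.0, 115.7, 753.1, 815.9 and 356.9 in dwarf livers, 5755 on df41 and 8301 to 24640 on the other wild-type arrays. It fell by 4.55 log2 (SE 0.38, adjusted p = 9.3e-10), with no overlap, and the difference was -4.70 without df41. Mup3 fell by 2.97 (22190 on df41, 2243 to 8014 in dwarf livers) and Mup5 by 2.58, with differences of -3.05 and -2.70 without df41. These genes have near-identical copies, and a probe set may read several of them, which holds also for the Cyp2b, Cyp2c, Cyp4a, Gst, Sult2a and Ugt2b families. Further falls were those of Egfr, the epidermal growth factor receptor (-1.58), the complement genes C8a (-1.72) and C8b (-1.29), Keg1 (-2.25), the coenzyme A hydrolase Nudt7 (-1.97) and the glucuronidating enzymes Ugt2b1 (-1.05) and Ugt2b38 (-2.12). C6 (-0.42), Bcl6 (-0.55) and Cyp2d9 were the 3 that did not pass with all arrays.

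Female-biased genes went the other way. Of 17, 12 were higher and 0 lower (2.46% of all genes were higher), with a median of 1.71 log2. Without df41 14 of them were higher, against 4.19% of all genes, and the median was 2.34. Without the arrays with high Xist, dwarf replicate 1 among them, 13 were higher, against 3.06% of all genes, and the median was 2.27. The ranges of the 2 groups did not overlap for only 2 of the 17 with all arrays, against 2.81% of all genes, and for 13 with df41 set aside, against 6.71%.

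Sult2a2, a sulfotransferase of steroids and bile acids, read 27440, 23180, 9489, 27530 and 16350 in dwarf livers. It read 29010 on df41, above every dwarf array, and 20.06 to 62.52 on the other 5 wild-type arrays. The rise was the largest at this age, 7.23 log2 (SE 0.98, adjusted p = 9.39e-06), and 8.79 without df41 (SE 0.38). Cyp2b13, a female-specific P450, read 12520 to 17840 in dwarf livers, 15850 on df41 and 203.3 to 327.8 on the others, a rise of 4.78, or 5.73 without df41. Hao2, a peroxisomal oxidase of long-chain hydroxy acids, had 1798 to 4967, 4641 and 107.3 to 164.1 in the same order, with 3.75 and 4.58.

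Of the other members, Cyp2b9 (2.59), the flavin monooxygenase Fmo2 (2.28), Vldlr, a lipoprotein receptor (2.19), the proton pump subunit Atp6v0d2 (2.04), the acyl-CoA thioesterase Acot3 (2.88, and 3.48 without df41) and the nuclear factor Tox (0.95) rose. Vldlr and Nipal1 were the members whose ranges did not overlap with all arrays, at 1066 to 1786 in dwarf and 140.4 to 551.7 in wild type for Vldlr. Sult3a1 read 8045 on df41, 2608 on dwarf replicate 3 and at most 412.5 elsewhere. It did not pass with all arrays (1.71, adjusted p = 0.382) and did without df41 (2.91, adjusted p = 0.0109). Cyp3a44 (-0.32), Cux2, a repressor of male genes (0.15), and Ntrk2 (-0.35) did not pass in either fit.

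**Figure D1:**
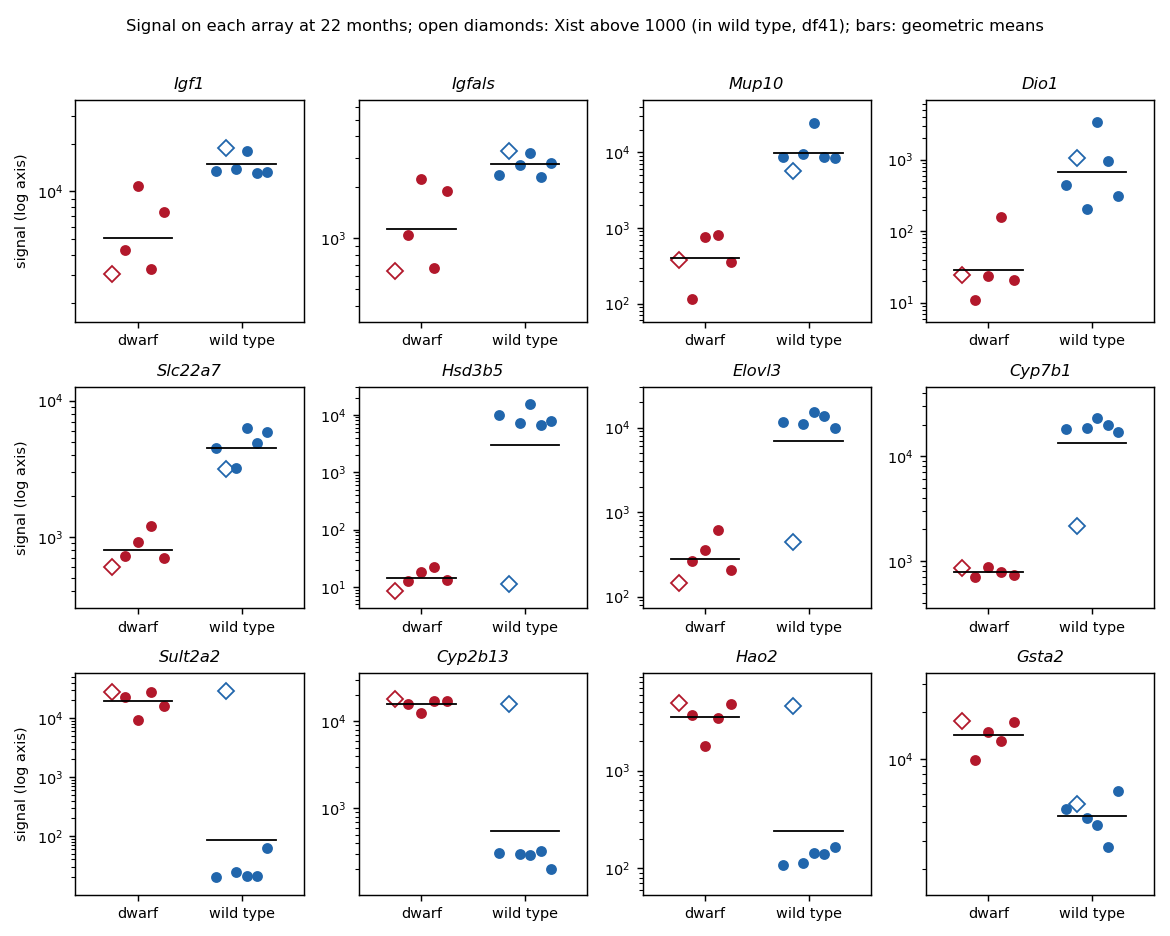
Signal of 12 genes on each array of 22 months, on log axes; filled circles are arrays, open diamonds the arrays with Xist above 1000 (dwarf replicate 1, and df41 in wild type), and bars geometric means of 5 dwarf and 6 wild-type arrays. For Igf1, Igfals, Mup10, Dio1, Slc22a7 and Gsta2 the diamond of df41 lies with the wild-type arrays, and for Hsd3b5, Elovl3, Sult2a2, Cyp2b13 and Hao2 among or next to the dwarf arrays.

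Where df41 lay between the genotypes was measured over genes called without it, on a scale with 0 at the mean of the other wild-type arrays and 1 at the dwarf mean. Over 1030 genes its median position was 0.745, and on 68.0% it was nearer to the dwarf mean. Measured the same way, each over the genes called without that array, the other wild-type arrays were nearer to the dwarf mean on 7.31% to 38.1% of genes and the dwarf arrays on 76.3% to 88.7%. The 38.1% belonged to wild type replicate 1, and the others were at 14.4% or less. Over the 345 genes that differed by at least 2-fold, df41 was nearer to the dwarf mean for 132 of the 179 that were higher (73.7%) and for 93 of the 166 that were lower (56%). Genes on which it stayed with wild type included Igf1, Mup10, Spink1, Lrtm2, Dio1, Mup3, Pls1, Scd2, Dct and Slc22a7.

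**Figure D2:**
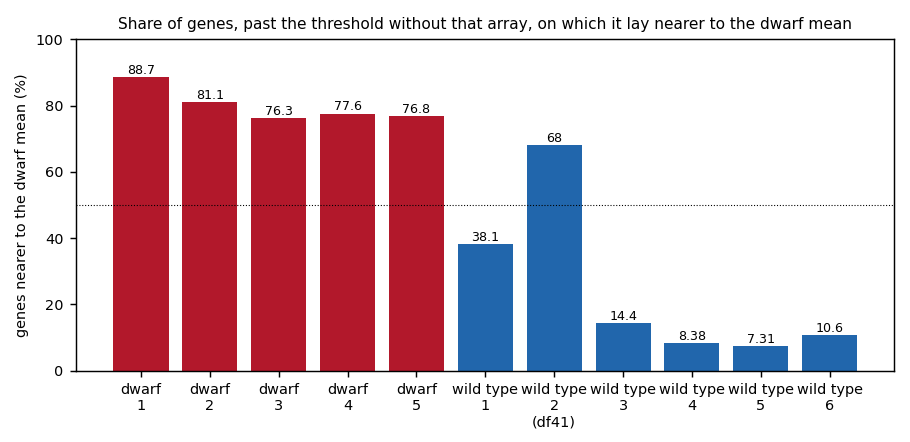
Each bar is 1 array of 22 months (red dwarf, blue wild type), and its height is the percentage of genes, among those past the threshold when that array was left out, on which the array lay nearer to the mean of the dwarf arrays than to that of the wild-type arrays. df41 stands at 68.0%, between the dwarf arrays (76.3% to 88.7%) and the other wild-type arrays (7.31% to 38.1%).

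Several of the largest differences lay outside the sex-biased lists, but whether the genes outside them are sex-biased was not tested. Of the 15 largest rises and 15 largest falls, 19 of 30 had ranges that did not overlap (2.81% of all genes), and 30 of 30 with df41 set aside (6.71%). They were chosen for their differences at this age, which favours such a count. All 30 were called without df41, and 29 of them in the same direction at 4 months and 28 at 10 months, where 9.97% and 6.19% of all genes were called. df41 was nearer to the dwarf mean for 11 of the 15 rises and 8 of the 15 falls.

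Cyp4a14, which hydroxylates fatty acids and is a target of the receptor Ppara, read 12790, 7937, 6581, 9322 and 3886 in dwarf livers, 1569 on df41 and 27.83 to 270.6 on the others. Its rise was 5.07 log2 (SE 0.54, adjusted p = 1.74e-07), and 5.63 without df41. Spink1, an inhibitor of trypsin, rose by 4.19 (SE 0.36, adjusted p = 1.5e-09), from 8.48 to 42.64 in wild type to 436.0 to 1221 in dwarf livers. df41 held the lowest Spink1 signal of all arrays, and without it the rise was 4.07. Lrtm2, a leucine-rich repeat gene, read 697.8 to 1036 in dwarf livers and 23.9 to 170.0 in wild type, a rise of 3.78, and of 3.86 without df41.

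Sult1e1, which inactivates estrogens by sulfation, rose by 2.91 log2 (5379 to 11000 in dwarf livers, 398.6 to 3927 in wild type). Cyp39a1, another oxysterol hydroxylase, rose by 3.33, and the keratin Krt23 by 3.09, though dwarf replicate 2 read 291.6 for Krt23 against 836.5 to 1107 on the other dwarf arrays. Scd2, a desaturase that makes monounsaturated fatty acids, rose by 2.88 with a wide spread, 6830, 3460, 1278, 970.1 and 1638 in dwarf livers against 153.1 to 476.2. Other probe sets of Scd2 gave 1.99 (adjusted p = 0.00343) and 0.999 (adjusted p = 0.0748). Prom1, a membrane protein of progenitor and bile duct cells, rose by 2.78, and Pls1, an actin-bundling protein, by 2.75. Hamp2 rose by 2.60, from 3213 to 6855 (and 27460 on df41) to between 34180 and 47500. Without df41 the rises were 3.27 for Sult1e1, 3.93 for Cyp39a1, 3.49 for Krt23, 2.71 for Scd2, 3.32 for Prom1, 2.73 for Pls1 and 3.01 for Hamp2. Slc16a5, a transporter-family gene, rose by 3.34 on 1 probe set (3.82 without df41), and another of its probe sets gave -0.07 (adjusted p = 0.963).

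Among the falls, Slc22a7, an organic anion transporter of the sinusoidal membrane, went from 3164 to 6331 in wild type to 601.2 to 1201 in dwarf livers, a fall of 2.46 log2 (SE 0.24, adjusted p = 3.56e-08), and of 2.56 without df41. Dct, a melanin-pathway enzyme, fell by 2.72, and its df41 signal of 1766 was next to the wild-type median of 1744. The unnamed transcript 9430083A17Rik fell by 3.51 and Cd163l1, a scavenger receptor family member, by 2.48. A second probe set of Cd163l1 gave 0.61 (adjusted p = 0.702), so its call rests on 1 probe set. Without df41 the differences were -2.70 for Dct, -3.74 for 9430083A17Rik and -2.90 for Cd163l1.

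Of the genes of thyroid hormone action, 3 of 11 were lower and 0 higher with and without df41, against 1.66% and 2.46% of all genes (2.50% and 4.19% without df41). The 3 genes were not the same in both fits, since Me1 did not pass without df41. The median of the list was -0.18, and -0.07 without df41. Dio1 read 24.02, 10.89, 23.92, 156.3 and 20.57 in dwarf livers, 1042 on df41 and 201.7 to 3413 on the other wild-type arrays, so that replicate 4 stood well above the other dwarf arrays and still below all wild-type ones. It fell by 3.84 log2 (SE 0.53, adjusted p = 1.27e-05), and by 3.72 without df41. Me1, malic enzyme, a classical thyroid hormone target that supplies NADPH for lipid synthesis, fell by 1.20 (adjusted p = 0.0458, and 0.0537 without df41), with 1936 to 2963 in dwarf livers and 3049 to 8934 in wild type. Klf9, a transcription factor that thyroid hormone induces, fell by 0.57 (adjusted p = 0.0331). Of the 11 fits that left out 1 array, the call of Me1 held in 2 and that of Klf9 in 5. The receptors Thra (-0.0047) and Thrb (-0.06) and the lipogenic gene Thrsp (0.12) did not pass.

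On the list of glutathione, NRF2 and antioxidant genes, 11 of 31 members were higher, 0 lower and 20 not past the threshold, where 2.46% of all genes were higher. Without df41 12 were higher, against 4.19% of all genes. The median was 0.14, or 0.21 without df41, and most of the calls were glutathione transferases. Gsta2, which conjugates electrophiles to glutathione, read 17500, 9845, 14770, 12960 and 17260 in dwarf livers and 2755 to 6232, with a median of 4516, in wild type. df41, at 5159, was among the wild-type arrays, and the rise of 1.70 log2 (SE 0.22, adjusted p = 6.05e-06) was 1.74 without it. Members differed in where df41 lay. Over all 31 tested its median position was 0.787, where 1 is the dwarf mean. For the 20 members not past the threshold a position can rest on a difference near 0, so this median is no firm measure. For Gsta4, Gstm6 and Gstt3 df41 read 3131, 1765 and 2859, above the other wild-type arrays (at most 1657, 1131 and 1975). For Gstm3 it read 4390, within their range of 3157 to 5255.

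Nqo1, the quinone reductase that serves as a marker of NRF2 activity, read 521.5 to 868.5 in dwarf livers and 80.35 to 420.2 in wild type, a rise of 1.39 without overlap. The transferases Gsta4 (1.34), Gstm6 (1.30), Gstt3 (1.20), Gstm3 (1.15), Mgst3 (0.86) and Gstt2 (0.72), the thioredoxin reductase Txnrd1 (0.63) and Nfe2l2, which encodes NRF2 itself (0.43), also rose. Mt2, a metallothionein, rose by 1.95, while its partner Mt1 missed the threshold with all arrays (2.01, adjusted p = 0.0516) and passed without df41 (2.40, adjusted p = 0.01). Members that make glutathione, Gclc (0.04), Gclm (-0.0044) and Gss (0.0020), or remove peroxide, Gpx1 (-0.23) and Cat (-0.27), did not pass. Nor did Sod1, which removes superoxide (-0.01), or Hmox1 (-0.11). Of the 11 calls, those of Nfe2l2, Gstt2 and Mt2 were lost in some of the fits that left out 1 array of 22 months.

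Xenobiotic monooxygenases and their regulators had 5 of 23 higher and 0 lower, where 2.46% of all genes were higher. Without df41 8 were higher, against 4.19% of all genes, and the median was 0.22 in both fits. Cyp2c37, an epoxygenase of arachidonic acid, read 1227 to 1885 in dwarf livers and 310.6 to 1219 in wild type, where df41 held the 1219. It rose by 1.495 log2 (adjusted p = 3.72e-05). Cyp2c39 (1.23), which hydroxylates retinoic acid, Cyp2c38 (1.04), Fmo4 (1.14) and Fmo1 (0.46) rose as well, and the call of Fmo1 held in only 1 of the 11 fits that left out 1 array. Cyp2b10, the classical target of the receptor CAR, did not pass with all arrays (1.19, adjusted p = 0.178) and passed without df41 (1.51, adjusted p = 0.0443). The same was true of Nr1i3, which encodes CAR (0.45 with all arrays, 0.64 without df41). Cyp3a11 (0.01), Cyp2e1 (-0.20) and Cyp1a2 (0.15) did not pass.

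**Figure D3:**
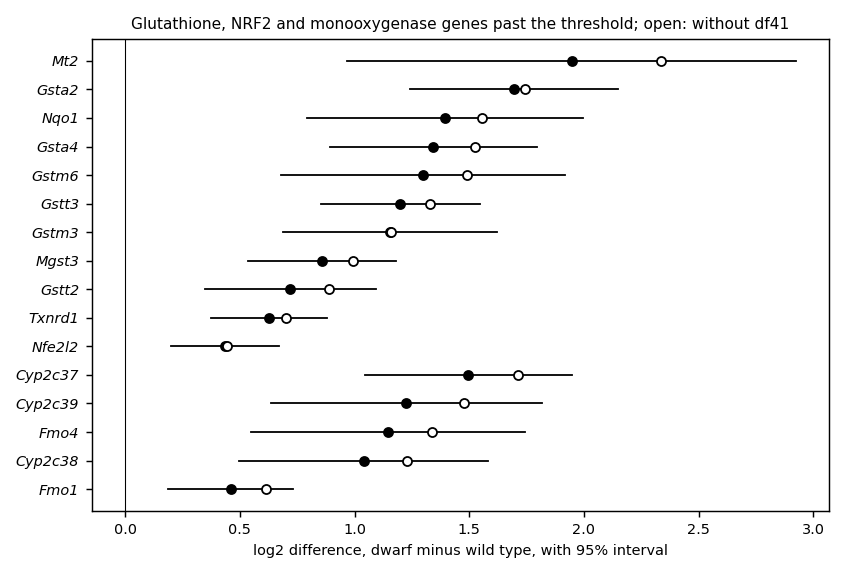
Log2 differences at 22 months, dwarf minus wild type, of the 11 glutathione and NRF2 genes and the 5 monooxygenase genes past the threshold; filled circles with 95% intervals are from all arrays, open circles without df41. The 16 genes were chosen for passing the threshold in this fit, so intervals that leave out 0 follow from the choice. Leaving out df41 moved Gsta2 from 1.70 to 1.74 and Mt2 from 1.95 to 2.34.

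In lipid metabolism few members moved, and most of those were genes of fatty acid oxidation. Of 24, 6 were higher and 1 lower with and without df41, with a median of 0.09, or 0.26 without df41. Of all genes 2.46% were higher and 1.66% lower, and without df41 4.19% and 2.50%. Beside Cyp4a14, the dehydrogenases Acadl (0.56) and Acadm (0.50), the peroxisomal enzyme Ehhadh (0.75), the thioesterase Acot4 (0.72) and Cd36, a fatty acid translocase (1.22), rose, and Fabp1, the main fatty acid carrier of the hepatocyte, fell by 0.49. The calls of Acot4 and Cd36 held in 3 of the 11 fits that left out 1 array, and that of Acadm in 5. Ppara (-0.02), Cpt1a (-0.03) and Fgf21 (-1.14, adjusted p = 0.32) did not pass. For Acadl df41 read 8438, above all dwarf arrays (5942 to 7147), where the other wild-type arrays read 3803 to 4164. Scd2 was the 1 call among 18 genes of fatty acid synthesis, with a median of -0.00021, and 1 was called without df41 too. Of 15 genes of sterol synthesis and 15 of bile acid synthesis and transport 0 passed by limma, with medians of -0.03 and 0.09, and 0 without df41, with medians of -0.10 and 0.24.

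Glucose metabolism had 1 higher and 1 lower of 16 (2 and 1 without df41), against 2.46% and 1.66% of all genes (4.19% and 2.50% without df41). Ppargc1a, a coactivator of mitochondrial and gluconeogenic genes, read 2647, 2473, 1986, 1315 and 1368 in dwarf livers, 1373 on df41 and 427.9 to 762.9 on the others, a rise of 1.45 log2 (adjusted p = 0.000125). Pcx, pyruvate carboxylase, fell by 0.41. In methionine and taurine metabolism 3 of 12 were higher and 1 lower (4 and 1 without df41). Cth, which makes cysteine by transsulfuration, rose by 0.82 without overlap (23500 to 29170 against 12730 to 18610), Bhmt2 by 0.49 and Gamt by 0.48, whose call held in 3 of the 11 fits. Csad, which leads from cysteine to taurine, fell by 2.09. Slc25a13, the aspartate-glutamate carrier that feeds the urea cycle, rose by 0.98, the 1 call among 8 urea cycle genes (3 without df41, with Otc and Asl). Of 39 genes of the respiratory chain, Ndufa2 (0.52) and Uqcrfs1 (0.34) rose, 4 genes without df41, which is near the shares of all genes (2.46%, and 4.19% without df41). A positive difference was found for 30 of the 39, and for 7907 of all 15421 genes, with a median of 0.08.

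Of 20 genes of the unfolded protein response and the chaperones of the endoplasmic reticulum, 3 were lower, 0 higher and 17 not past the threshold, with and without df41. Of all genes 1.66% were lower with all arrays and 2.50% without df41. The median of the list was -0.34, and -0.38 without df41, where all genes had 0.01 with all arrays. Calr, a lectin chaperone, fell by 0.47 (14840 to 20040 against 19320 to 29950), Dnajb9 by 0.58 and Dnajb11 by 0.62, the last 2 kept in 4 and 6 of the 11 fits that left out 1 array. Hspa5, the main chaperone of this compartment (-0.41, adjusted p = 0.205), and Xbp1 (-0.37) did not pass. Of 11 chaperones of the cytosol and mitochondria 0 passed by limma with or without df41.

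Acute phase genes had 1 higher and 2 lower of 20 with and without df41, with a median of -0.25. Of all genes 2.46% and 1.66% were called in these directions (4.19% and 2.50% without df41), so the higher count is near the background. The calls were Cd14, a coreceptor for bacterial lipopolysaccharide (1.58, kept in 5 of the 11 fits), and the plasma proteins Apcs (-1.16) and Saa4 (-1.01). Saa1, the serum amyloid gene that rises most in inflammation, read 50600 and 54320 on wild type replicates 5 and 6, 28060 on dwarf replicate 4, and 2531 to 11080 on the remaining 8 arrays, and did not pass (-0.98, adjusted p = 0.512). Usp18, an interferon-induced protease, rose by 0.97 without overlap (472.3 to 849.1 against 264.2 to 347.1), the 1 call of 13 interferon genes with and without df41. The clock gene Per1 (1.96, not past without dwarf replicate 2) was the 1 call of 16, and Ccnd1, cyclin D1 (0.86, kept in 6 of the 11 fits), the 1 call of 21 genes of cell division. Without df41 the clock list had 2 higher and 1 lower and the cell division list 2 higher. Of 6 genes of MHC class II 0 passed by limma with all arrays, and 1 without df41.

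**Figure D4:**
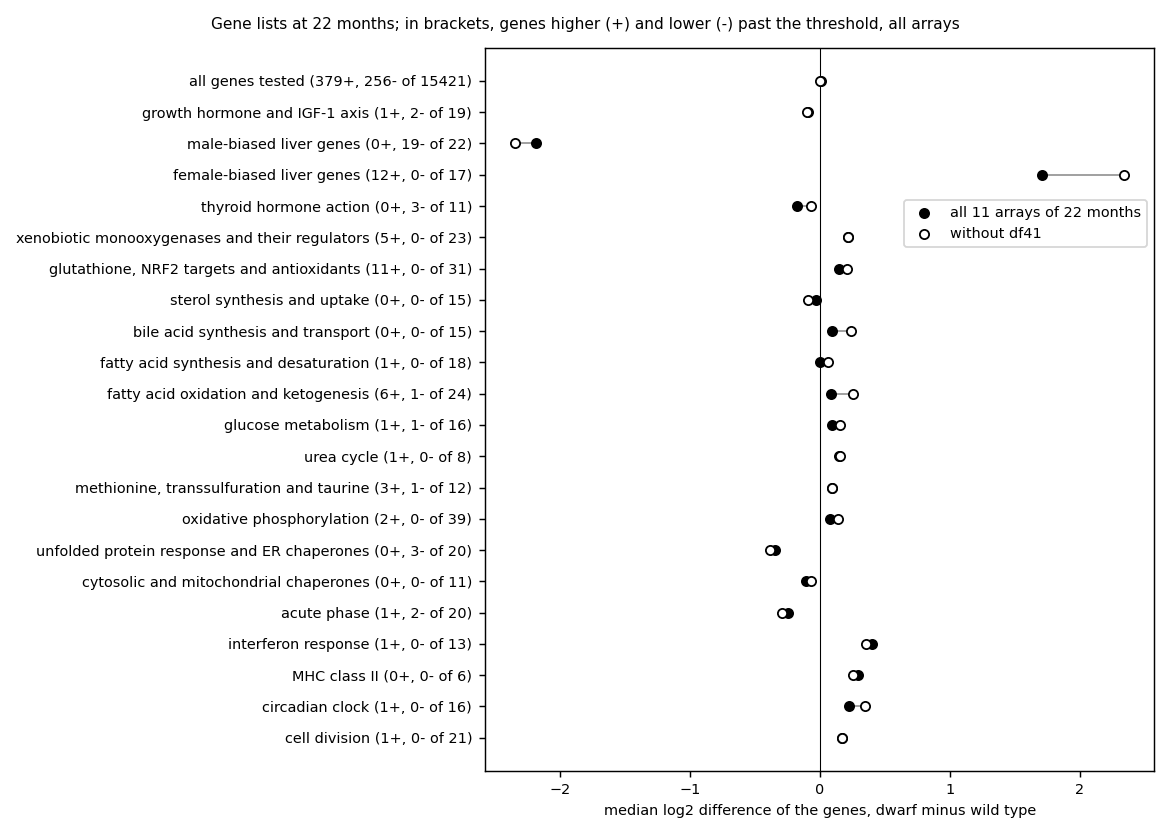
Median log2 difference at 22 months, dwarf minus wild type, of each of the pathway lists, cell marker lists aside, with all 11 arrays (filled) and without df41 (open); brackets give how many genes passed the threshold in each direction. The male-biased list lies at -2.18 and the female-biased list at 1.71, while the medians of the other pathway lists with all arrays lie between -0.34 and 0.40.

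Few markers of other cell types passed the threshold. Lists for Kupffer cells, endothelium, stellate cells, bile duct, T cells, B cells, neutrophils, fat and muscle held 3 to 12 tested genes each. Of these genes 0 passed by limma with all arrays, where 2.46% of all genes were higher and 1.66% lower. On lists this short 0 calls says little. Without df41 Neb of the muscle list was lower (-2.42, adjusted p = 0.0154 by limma), where 2.50% of all genes were lower. Summed over 3 red cell genes, signal was 1462 to 2730 in dwarf livers, 822.5 on df41 and 3897 to 5923 on the other wild-type arrays, and Alas2, which starts haem synthesis in red cell precursors, fell by 1.14 (adjusted p = 0.0389) and by 1.59 without df41, with its call kept in 2 of the 11 fits. Alas2 made up most of that sum, at a mean of 1650 in dwarf and 4214 in wild-type livers, so both are 1 observation. The others, Hba-a1 (-0.81, adjusted p = 0.261) and Epb42 (0.26), did not pass. Summed over 10 genes of the exocrine pancreas, 2 of them dim, it was 1799 to 2910 in dwarf livers, 2411 on df41 and 3847 to 4937 on the others. The call there was Cela1, an elastase (-1.54), and the other 5 genes tested had positive differences that did not pass. Cela1 made up most of the sum in wild type, at a median of 2906 where the sum had 4264, so here too both are 1 observation. The part of blood or pancreatic RNA in other differences was not tested.

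Whether the difference at 22 months was unlike that at the younger ages was tested directly, as the difference at 22 months minus the mean of those at 4 and 10 months. By limma 47 of 15421 genes passed (0.305%), 37 with a positive value (0.240%) and 10 with a negative one (0.0648%). Without df41 118 passed (0.767%), 46 of them shared. In 16 of the 47 the younger and the older difference had the same sign, and in 15 of these the older one was smaller in size. In the other 31 the signs were opposite, which need not be a reversal. At 22 months several of these differences were near 0, such as those of Nceh1 (0.0028) and Txndc15 (0.0049), and others were larger, such as that of Nkain4 (1.24). Gpr37 alone was called in opposite directions at 22 months and at a younger age. Only 14 of the 47 passed whichever of the 31 arrays was left out.

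Igf1 and Igfals were among them, and both were less reduced at 22 months. Igf1 differed by -3.19 log2 at 4 months, -3.04 at 10 months and -1.54 at 22 months, a change of 1.57 (SE 0.32, adjusted p = 0.0237) that did not pass without dwarf 22 months replicate 3. In dwarf livers mean Igf1 signal stood at 2011 ± 471.2, 1813 ± 1046 and 5776 ± 3328 in order of age (SD, n = 5 each). In wild type it was 18220 ± 2704 and 13450 ± 948.4 (SD, n = 5 each) and then 15060 ± 2559 (SD, n = 6). Igfals changed by 1.93 (adjusted p = 0.000822), from -3.17 and -3.20 to -1.26, and passed whichever array was left out. Its mean signal in dwarf livers was 316.0 ± 85.75, 300.3 ± 61.2 and 1302 ± 732.7 (SD, n = 5 each).

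Mup10 followed the same pattern, with -8.05 and -7.73 at the younger ages and -4.55 at 22 months, a change of 3.34 (SE 0.47, adjusted p = 0.000703). Dwarf livers held 7.99 to 71.82 at 4 months, 16.36 to 70.67 at 10 months and 115.7 to 815.9 at 22 months, so the oldest dwarf group did not overlap the younger ones. Csad also changed, by 2.35 (adjusted p = 0.000822), but its dwarf means were 365.6 ± 130.8, 298.7 ± 66.74 and 414.4 ± 72.77 (SD, n = 5 each), while the wild-type means were 8335 ± 2995 and 7699 ± 4501 (SD, n = 5 each) and then 1889 ± 596.6 (SD, n = 6). The narrower difference thus went with higher dwarf levels for Mup10 and with lower wild-type levels for Csad.

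Wfdc21, a secreted protein gene, had the largest change, 4.08 (SE 0.79, adjusted p = 0.0136). Its signal was 548.5, 15300, 18910, 17360 and 2438 on dwarf replicates 1 to 5 at 22 months, against 36.97 to 2042 on all dwarf arrays of 4 and 10 months and 22330 to 29600 in wild type at 22 months. Replicates 2, 3 and 4 were near the wild-type range and replicates 1 and 5 near the younger dwarf arrays, so the 22-month difference itself did not pass (-2.08, adjusted p = 0.0575). Paqr9, a receptor family member, had the same 2 replicates lowest, at 1012 and 1273 against 2450 to 4338, with a change of 2.08. Without dwarf 22 months replicate 3 the change passed for neither gene, and for Paqr9 it also failed without dwarf 22 months replicate 4 or wild type 22 months replicate 3.

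Nkain4 (3.00), the receptor-family gene Lrp11 (2.68), Nat8, an acetyltransferase of kidney and liver (2.33), and Olfm3 (1.98) complete the 8 largest positive changes. The change of Olfm3 passed in 16 of the 31 fits that left out 1 array and that of Nat8 in 29, and neither Lrp11 nor Nat8 nor Olfm3 passed without dwarf 22 months replicate 3. Nkain4 and Lrp11 differed by -2.19 and -1.64 at 4 months and by 1.24 and 1.04 at 22 months, neither of which passed at 22 months. Mme, the peptidase neprilysin, changed by 1.80 (adjusted p = 0.00197) and passed whichever array was left out. Cyp26a1, which degrades retinoic acid (1.83), and the lipoprotein gene Apoa4 (1.52) also passed, each in 11 of the 31 fits that left out 1 array.

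On the negative side stood Gpr37 (-2.58), Gng4 (-2.31), Nr4a2 (-2.19), Ebi3 (-2.02), Acvr2b (-1.96), Peg3 (-1.91), Trib3, a pseudokinase of the stress response (-1.65), and Fbxo21 (-1.28). Gpr37, an orphan receptor, was higher in dwarf livers at 4 months (1.87, adjusted p = 0.00942) and lower at 22 months (-1.73, adjusted p = 0.0266), the 1 gene called in opposite directions. Its 22-month call held in only 5 of the 11 fits that left out 1 array of that age; wild type replicates 1 and 2 read 365.5 and 281.3, within or near the dwarf range of 85.82 to 335.2, and the others 867.2 to 1040. Of the 31 fits that left out 1 array, the change of Gpr37 passed in 13, Nr4a2 in 6, Peg3 in 9, Ebi3 in 10, Acvr2b in 11 and Gng4 in 20. For Trib3 and Fbxo21 a difference called at both younger ages (1.75 and 1.32 for Trib3, 1.55 and 0.9995 for Fbxo21) was -0.12 and -0.0020 at 22 months. Other probe sets did not follow for several of these: at 22 months Nr4a2 gave -1.79 on the probe set read and 0.29 to 1.09 on 4 others, Gng4 -0.77 and 1.15, Trib3 -0.12 and 1.20, and Peg3 -1.41 against -0.19 and -0.11.

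**Figure D5:**
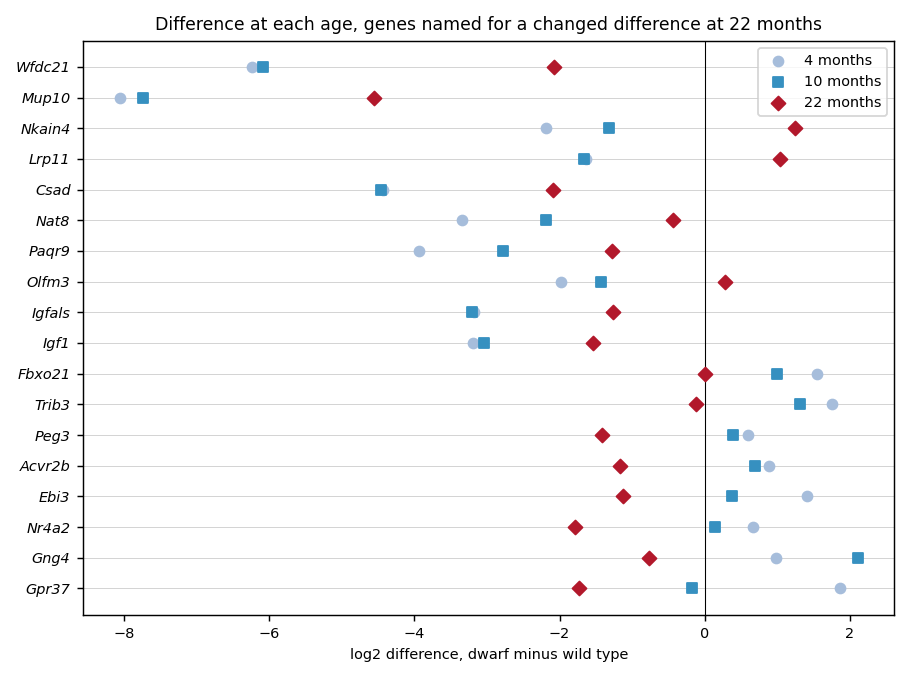
Log2 difference, dwarf minus wild type, at 4 months (circles), 10 months (squares) and 22 months (diamonds) for the 16 genes named for a changed difference and for Igf1 and Igfals; no errors are drawn. For Igf1, Igfals, Mup10 and Csad the 22-month value lies nearer to 0 than those of both younger ages, and for Gpr37 it lies at -1.73 against 1.87 at 4 months.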

How the data were processed

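Liver RNA of 31 mice was read on Affymetrix arrays. The authors deposited intensity values on the linear scale that MAS5 writes as signal, by their processing notes, without its version or target. Each array was scaled to a 2% trimmed mean of 500 (factors 1.008 to 1.011), and log2 of signal plus 16 was taken. Column names matched sample titles, and no pair of arrays held identical values.

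Of 45037 probe sets, 34945 carried 1 gene symbol, 932 several and 9160 none here. A probe set was kept if above the 40th percentile of its array on at least 5 arrays, and the one with the highest mean stood for its gene, giving 15421 genes. The model (limma 3.58.1, R 4.3.3) held 6 group means over all 31 arrays and a mean-variance trend. Benjamini-Hochberg adjustment ran across the 15421 genes, and 0.05 was the threshold. It was tested on simulated data at 22 months over 15421 genes, with 50 genes shifted by each amount. There it recovered 14% of shifts of 0.5 log2, 54% of shifts of 1 and 88% of those of 2, so shifts near 0.5 were mostly missed. Only 134 genes were called there, against 635 in the data. The adjusted threshold was thus stricter in the simulation, and these shares need not hold for the data. The number of arrays limits the precision.

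Genes named are the 15 largest rises and 15 largest falls past the threshold with all 5 dwarf arrays on that side of the wild-type mean, the 8 largest changes of the difference each way, genes called in opposite directions at 2 ages, and members of 33 lists (527 members, 457 tested). Mme, Cyp26a1 and Apoa4 were named after their values were seen. Members and lists were chosen with earlier results of these data known. A call counts as kept without an array when genes and probe sets stay as with all arrays. Alternatives were other scalings, pseudocounts of 1 and 64, other filters, the mean of probe sets and single probe sets, weighting of arrays, robust variances, a fit without the trend, a term for Xist above 1000, only the arrays of 22 months, and leaving arrays out.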

Additional observations from a re-analysis of the deposited data

Results flagged for a closer look

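Within each group of 22 months, the genes with the largest differences and Igf1, Igfals and Igfbp1 were searched for an array whose gap to its neighbour, as a share of the group's range, was above Dixon's 95% critical value. Chance flags about 1 in 20 groups, and 20 of 66 were found here. Of these, 15 were df41. That array was known to stand apart before the search, and the genes were chosen for their differences. Its flags are thus not independent, and the count cannot be set against the chance rate. A single flag on another array can arise by chance. In wild type, df41 stood apart above the others for Sult2a2 (29010, others at most 62.52), Cyp2b13 (15850), Hao2 (4641), Slc16a5 (297.4), Cyp39a1 (986.4), Acot3 (2803), Prom1 (326.7) and Hamp2 (27460). It stood apart below them for Hsd3b5 (11.3, others at least 6543), Slco1a1 (670.8), Elovl3 (447.0), Cyp7b1 (2136), 9430083A17Rik (195.8), Mup3 (22190) and Cyp4a12a (228.4). The other wild-type arrays found were replicate 4 for Mup10 (24640, others at most 9603) and replicate 3 for Dct (836.7, others at least 1582). Among dwarf arrays, replicate 2 was low for Krt23 (291.6), replicate 5 high for Acot3 (4772, others at most 2324) and replicate 4 high for Dio1 (156.3, others at most 24.02).

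The difference at 22 months was unlike the mean of those at 4 and 10 months, by limma's test of the change itself, for Wfdc21 (4.08), Mup10 (3.34), Nkain4 (3.00), Lrp11 (2.68), Csad (2.35), Nat8 (2.33), Paqr9 (2.08), Olfm3 (1.98), Igfals (1.93) and Igf1 (1.57), in log2. The change was negative for Gpr37 (-2.58), Gng4 (-2.31), Nr4a2 (-2.19), Ebi3 (-2.02), Acvr2b (-1.96), Peg3 (-1.91), Trib3 (-1.65) and Fbxo21 (-1.28). Of the genes in this paragraph, Mup10, Nkain4, Csad and Igfals passed whichever of the 31 arrays was left out. The rest failed in 1 or more of these fits, and Nr4a2 passed in only 6.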

How the results depend on the processing

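The count of genes past the threshold at 22 months, 635 (379 higher, 256 lower), moved by over 1.5 times without df41 (1030, 645 and 385), with array weights (1076, 660 and 416), and in a fit of only the 11 arrays of 22 months (371, 203 and 168). Median centring gave 409 higher and 155 lower, which put 72.5% of the calls on the higher side in place of 59.7%. Leaving out 1 array of the 31 gave 370 to 1030 genes, 224 to 645 higher and 146 to 385 lower. The lowest counts came without wild type 22 months replicate 4, and the counts without wild type replicate 5 and dwarf replicate 1 were 383 and 398. For the change against the younger ages, the 47 genes (37 positive, 10 negative) became 118 without df41 (83 and 35), 126 with array weights (88 and 38), 74 without the arrays with high Xist (27 negative), 24 with the mean of probe sets (20 and 4), 14 without the trend (14 and 0) and 28 with no filter (3 negative). The negative count was 18 with the filter at the 60th percentile, 5 with median centring and 3 with a pseudocount of 1. Leaving out 1 array gave 15 to 118 genes, 14 to 83 positive and 1 to 35 negative, lowest when dwarf 22 months replicate 3 was dropped. Dropping wild type 22 months replicate 1, 3 or 5 gave 102, 22 and 24 genes, and dropping dwarf 10 months replicate 1 gave 26. Where the cause is not the construction, it was not tested. Slc16a5 turned to -0.21 without the arrays with high Xist, because another probe set then had the highest mean, and Nr4a2 turned in the same way to 0.38 with a pseudocount of 1 and, in 12 of the 31 fits that left out 1 array, to between 0.15 and 0.53; over all of these fits it ran from -2.58 to 0.53. Cyp4a12a missed the threshold in 5 alternatives other than leaving out arrays (adjusted p 0.0501 to 0.118) and Cd163l1 with the mean of probe sets (0.287); the other genes named for their rise or fall kept their direction and call, Slc16a5 aside. No paired analysis was possible because the groups hold different animals and the labels give no pairing. The number of arrays and signal near background limit what could be seen.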
